A study of Taeniopygia guttata with 134 samples.

Results

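In the brains of control-injected male zebra finches (Taeniopygia guttata), 74 of 18618 genes varied widely from male to male in each of 3 regions. Small differences of mean log2 level between the regions and after lipopolysaccharide were conditions of the choice. These 74 variable genes were chosen on log2 CPM, where CPM is a gene's count scaled to a library total of 1000000 and a pseudocount of 0.5 was added to each count before the log. A gene entered the set when its mean in control males was at least 0 (1 CPM) in all 3 regions and when the SD between control males, after the mean of each social setting had been subtracted, was at least 1 in all 3 regions. An SD of 1 on this scale corresponds to a 2-fold deviation. In addition, the mean difference between LPS and control males over the 4 settings had to stay below 0.4 in size in each region, and the control means of any 2 regions had to differ by less than 0.58. The deposited table gives Ensembl identifiers without names, and the table of zebra finch genes used for naming paired none of them, so the variable genes are described by their values and only a few by identifier.

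RNA sequencing had been done on 3 regions per brain, namely the nucleus taeniae (TN), the stria terminalis bed nucleus (NST) and the hypothalamus (HY). Males had received lipopolysaccharide (LPS), a bacterial cell wall molecule that activates innate immunity, or a control injection coded S in the labels. The 4 social settings that followed were isolation (ISO), unbroken company of a familiar female (KFC), reunion with a familiar female (KF) and pairing with an unfamiliar one (NF). The libraries came from 23 LPS males and 23 control males, going by the numbers in the labels, and 42 of the 46 males contributed all 3 regions. The sources used here give no age, strain, dose or delay between injection and dissection. ISO and KF each had 6 LPS and 6 control libraries per region, and KFC had 5 LPS and 5 control libraries per region. In NF the LPS libraries numbered 4 in TN, 6 in NST and 5 in HY, against 5, 6 and 6 control libraries.

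Transcript levels in outbred animals differ between individuals through inherited differences, physiological state and experience, and measured levels differ further through dissection and library preparation. Several tissues taken from the same animal share its genome and its history but are dissected and prepared separately. A gene whose level follows the animal in every region therefore varies in a different way from a gene whose level is high in one dissection and low in the next. The nucleus taeniae and the bed nucleus of the stria terminalis lie in the songbird forebrain and, with the hypothalamus, belong to a network that takes part in social behaviour.

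The 134 libraries held between 7339294 and 14096470 reads counted to genes. For each of the 74 variable genes the deviation from the group mean was correlated with the library total, over 21 to 23 libraries of one region. The median Pearson correlation was 0.012 in TN, -0.044 in NST and -0.0043 in HY of LPS males, and 0.017, 0.011 and 0.028 in control males. Positive and negative values cancel in these medians. Single genes ran from -0.628 to 0.524, -0.479 to 0.522 and -0.504 to 0.535 in TN, NST and HY of LPS males. In control males they ran from -0.503 to 0.536, -0.676 to 0.491 and -0.624 to 0.560. No gene exceeded 0.7 in size. Some libraries went against their labels. The HY libraries labelled 32 and 33, both of LPS males in KF, each matched the TN and NST libraries of the other number, as described with the male-by-male profiles, and the NST library of male 19 (LPS, NF) matched no number well. Both HY libraries belong to 1 group, so the group means are not touched, but they touch the agreement between regions in LPS males, whose median share between males and correlations are given with and without males 32 and 33 and the NST library of male 19.

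In control males, the values on which these genes were chosen had a median SD of 1.36 in TN, 1.30 in NST and 1.40 in HY, with ranges of 1.03 to 2.57, 1.01 to 2.63 and 1.03 to 2.84. The median SD over the other 12716 genes with a control mean of at least 1 CPM in all regions was 0.288, 0.257 and 0.318. From the lowest to the highest control male a variable gene spanned a median of 6.22 log2 units in TN, 5.78 in NST and 6.20 in HY, pseudocount included. Most of these genes were of low abundance: the median control level was 1.78, 1.89 and 1.84 log2 CPM in TN, NST and HY, against 4.62, 4.71 and 4.77 for the other genes. The highest level of a variable gene was 6.91 log2 CPM, in HY. The set has no sharp edge. The 3 genes just inside the bound had a lowest SD of 1.006, 1.014 and 1.023, and the 3 genes just outside it had 0.998, 0.992 and 0.991. For the bound on the LPS difference, the nearest values were 0.390 inside and 0.40 outside, and for the bound on the region difference 0.575 inside and 0.581 outside. The control mean nearest to the minimum was 0.0038 inside and -0.019 outside. Of the 270 genes that met the conditions on level and SD, the condition on LPS left 99 and the condition on regions left 74.

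The spread was also large in LPS males, whose spread had played no part in the choice. The median SD of the variable genes in LPS males was 1.19 in TN, 1.18 in NST and 1.20 in HY, against 0.268, 0.268 and 0.241 for the other genes. It was 1.34, 1.28 and 1.28 for the 196 genes that met the conditions on level and SD but not those on LPS or regions. A large spread in LPS males is thus not particular to the 74. In TN 54 of the 74 genes had an SD of at least 1 in LPS males, in NST 57 and in HY 51. In all 3 regions at once it was at least 1 for 48 of the 74 genes, or 64.9%, whereas 1.68% of the other genes reached that. The share among the 196 is not given here. At the other end, 6 variable genes had an SD under 0.75 in LPS males in all 3 regions, a count not set beside the other genes. In these bulk samples fewer cells of a type and less RNA per cell cannot be told apart, and near-identical gene copies or overlapping genes may share reads. Counting error at the level of each gene would give a median SD of 0.223 in TN, 0.243 in NST and 0.248 in HY. In LPS males the SD was more than 2 times the counting value for 74, 73 and 72 of the 74 genes in TN, NST and HY. These counts are not set beside the other genes, and nothing particular to the variable genes is read from them.

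Because the genes were chosen for a high SD in control males, a lower SD in LPS males is to a degree built in, and the difference was not tested. The SD was lower in LPS than in control males in all 3 regions for 39 genes and higher in all 3 for 5. As these counts are not set beside other genes, nothing particular to the variable genes is read from them. With the median absolute deviation in place of the SD, scaled to equal the SD of a normal distribution, the median over the variable genes in LPS males was 0.730 in TN, 0.742 in NST and 0.688 in HY. This measure was lower than the SD in every set of genes, at 0.840, 0.818 and 0.854 for the 196 genes that met the conditions on level and SD only, and at 0.218, 0.218 and 0.195 for the other 12716. The ratio of the 2 medians was 0.613, 0.630 and 0.576 for the variable genes, 0.628, 0.640 and 0.666 for the 196, and 0.814, 0.811 and 0.812 for the other 12716.

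**Figure D1:**
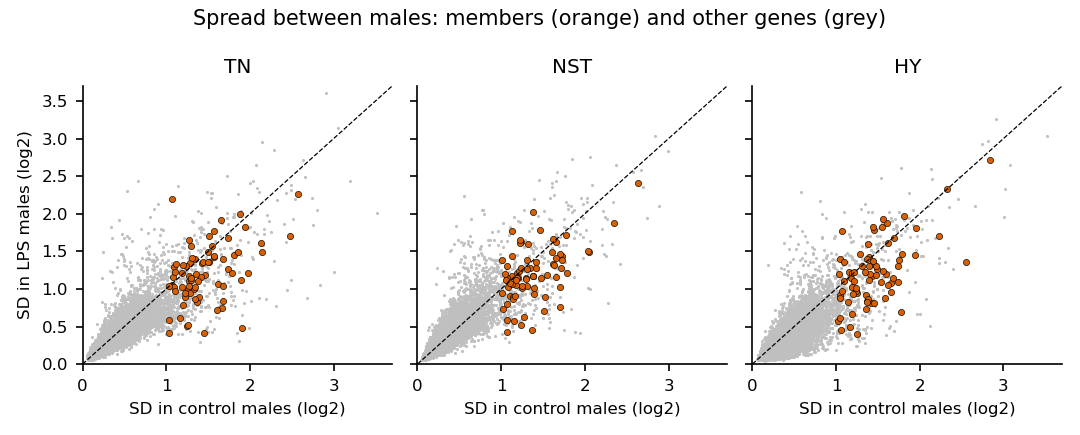
Each point is a gene with a control mean of at least 1 CPM in all regions; the vertical axis is the SD between LPS males and the horizontal axis the SD between control males (log2 CPM after subtracting setting means), with the 74 variable genes in orange, other genes in grey and equality as the dashed line. The variable genes start at an SD of 1 in control males by choice, and in LPS males 54, 57 and 51 of them reach 1 in TN, NST and HY.

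A high spread was present in every setting of LPS males. In control males a high spread within settings was a condition of the choice, so the values of control groups are only a description. Within single groups of 4 to 6 males, the median SD of the variable genes ran from 0.937 (HY, LPS, NF) to 1.18 (TN, LPS, KF) among the LPS groups and from 1.04 (HY, control, KFC) to 1.63 (HY, control, KF) among the control groups. Over all genes with a control mean of at least 1 CPM, the median SD of the LPS groups ran from 0.230 (HY, ISO) to 0.302 (TN, KF). The control KF males had the highest median SD of the control groups in each region, at 1.61 in TN, 1.41 in NST and 1.63 in HY. Genes could enter the set through a high spread in this group, so nothing is read from its rank. In HY that group was also the most spread over all genes with a control mean of at least 1 CPM, with a median SD of 0.411 against 0.234 to 0.300 in the other control groups, but in TN and NST it was not, at 0.292 and 0.237. HY replicate 44, which stood apart from the other HY libraries in earlier results, belongs to this group. Its part in the spread of the group was not tested. Without the 3 libraries of male 44 the conditions selected 64 genes, 54 of them among the 74, and without HY replicate 44 and NST replicate 4 together they selected 66, with 58 among the 74.

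Levels followed the male across regions. In LPS males, a test of differences between males of one setting, set against the disagreement between the regions of one male, called 74 of 74 variable genes (edgeR quasi-likelihood F test, Benjamini-Hochberg adjusted p under 0.05 over 14760 genes), where the background over all genes tested was 62%. Differences between males were thus found for most genes tested, and the count alone says little about the variable genes. The size of the agreement was measured as the share of the variance that lies between males rather than between the regions of one male. In LPS males this share had a median of 0.813 over the variable genes, with quartiles of 0.697 and 0.897, against a median of 0.342 over the other 12716 genes. It was at least 0.75 for 48 of the 74, or 64.9%, against 5.36% of the other genes, and at least 0.9 for 18 of the 74, or 24.3%, against 0.70%. Without males 32 and 33 and the NST library of male 19 the median was 0.890 over the variable genes and 0.409 over the others, and 61 variable genes reached 0.75.

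The 196 genes that met the conditions on level and SD but not those on LPS or regions are the closest comparison. Their median share between LPS males was 0.727, and 43.4% of them reached 0.75. Without males 32 and 33 and the NST library of male 19 their median was 0.837 and 71.4% of them reached 0.75, against 82.4% of the variable genes. In control males, whose spread chose the genes, the median share was 0.888 for the variable genes, 0.881 for the 196 and 0.284 for the other 12716. The test called 74 of 74 variable genes in control males as well, where the background was 56%, and nothing is read from that count.

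**Figure D2:**
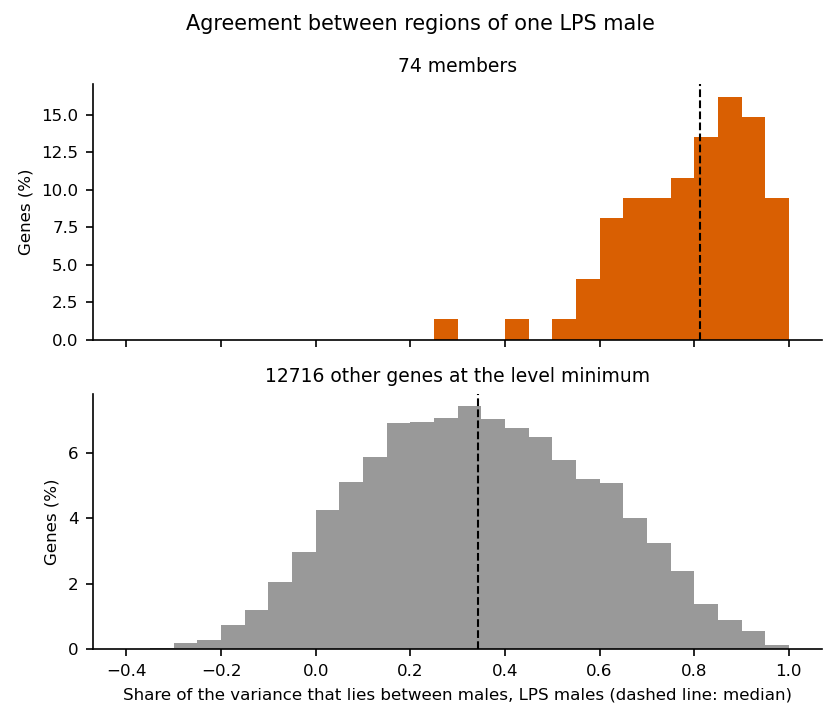
Distribution of the share of the log2 CPM variance that lies between LPS males (horizontal axis), in percent of genes (vertical axis), for the 74 variable genes above and the 12716 other genes below; dashed lines are medians. The median is 0.813 for the variable genes and 0.342 for the others, and estimates can fall below 0 when the regions of one male disagree more than different males do.

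The labels give no date or batch of extraction or sequencing, so a batch shared by the regions of 1 male cannot be told apart from the male.

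Every pair of regions showed the agreement. Over 20 LPS males, the correlation of a gene's deviations in TN with those in HY had a median of 0.829 among the variable genes and 0.332 among the other genes. For NST with HY it was 0.819 against 0.417 (22 LPS males), and for TN with NST 0.865 against 0.362 (21 LPS males). The correlation was over 0.5 for 65, 69 and 71 of the 74 genes in these pairs, or 87.8%, 93.2% and 95.9%. It was over 0.5 for 30.6%, 38.0% and 33.7% of the other genes. Among the 196 genes that met the conditions on level and SD only, the shares were 76.5%, 75.5% and 86.7%. In control males the spread in each region had chosen the genes, and nothing is read from the contrast there. The medians in control males were 0.916, 0.897 and 0.924 for TN with HY, NST with HY and TN with NST. They were 0.290, 0.330 and 0.40 for the other genes (22 or 23 males). Among the 196 other genes with a high SD in controls the medians were 0.713, 0.714 and 0.798 in LPS males and 0.878, 0.895 and 0.905 in control males. Without males 32 and 33 and the NST library of male 19, the medians in LPS males were 0.879, 0.901 and 0.895 for the variable genes (18 or 19 males). They were 0.843, 0.855 and 0.849 for the 196, and 0.391, 0.496 and 0.424 for the other genes. In each pair 71 of the 74 (95.9%) were then over 0.5. The shares were 91.3%, 91.3% and 90.3% of the 196, and 38.1%, 49.6% and 41.4% of the other genes. These correlations describe single genes over males whose regions share one brain, and no test is attached to them.

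The 74 levels together formed a profile that marked most males. For each library, the deviations of the variable genes from the group mean were correlated with those of every library of another region. Libraries of LPS and control males were pooled, and the spread of the control males had chosen the genes. The control males thus favour a match in the counts, medians and separation of the 74 genes. The match was not counted in LPS males alone. Libraries of the same number had a median correlation over the 74 genes of 0.884 for TN with HY, 0.875 for NST with HY and 0.884 for TN with NST, and libraries of different numbers a median of -0.017, -0.027 and -0.024. The HY library most like a TN library carried the same number for 40 of 42 males, and the HY library most like an NST library for 42 of 45. Between TN and NST the same number came first for 42 of 43. The males whose own number did not come first were 19, 32 and 33, all of them LPS males. Males 19, 32 and 33 were set aside because of their low correlations in these same 74 genes, so the separation that follows is in part fixed by that step. Among the other males the lowest correlation within a male was 0.626, 0.728 and 0.783 for TN with HY, NST with HY and TN with NST, above the highest between different males, which was 0.528, 0.571 and 0.579. The other 12716 genes also placed the same number first for 39 of 42, 42 of 45 and 41 of 43 males, with median correlations of 0.501, 0.570 and 0.525. The 196 other genes with a high SD in controls did so for 40 of 42, 42 of 45 and 42 of 43 males, with medians of 0.839, 0.851 and 0.847, so the match is not particular to the 74. Genes are not independent replicates in any of these correlations.

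Exceptions were the same few libraries. TN of male 32 correlated at -0.114 with the HY library of its own number and at 0.836 with HY of male 33. TN of male 33 correlated at -0.082 with its own HY library and at 0.818 with HY of male 32. NST showed the same crossing, with 0.136 and 0.055 for the own numbers and 0.811 and 0.827 for the crossed ones. NST of male 19 reached 0.295 with HY and 0.219 with TN of its own number. Its best matches were 0.424 in HY and 0.473 in TN, each with the library of male 64.

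**Figure D3:**
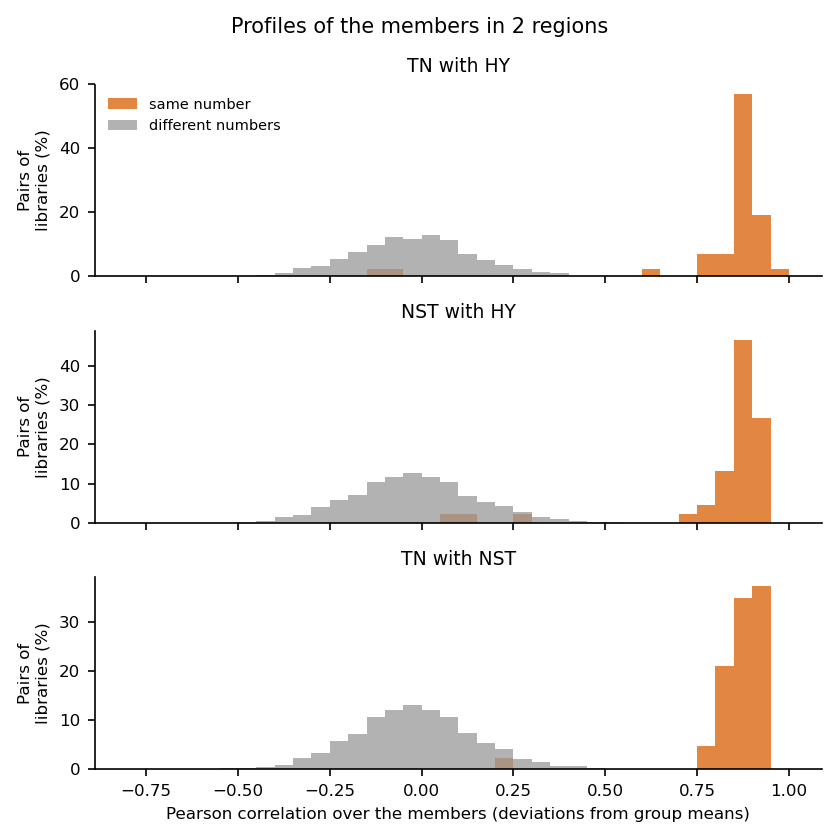
Pearson correlations over the 74 variable genes between libraries of 2 regions (horizontal axis), in percent of library pairs (vertical axis), for libraries with the same number (orange) and with different numbers (grey), LPS and control males together. Same-number pairs centre on 0.875 to 0.884, apart from a few near or below 0.3 that involve males 19, 32 and 33.

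**Figure D4:**
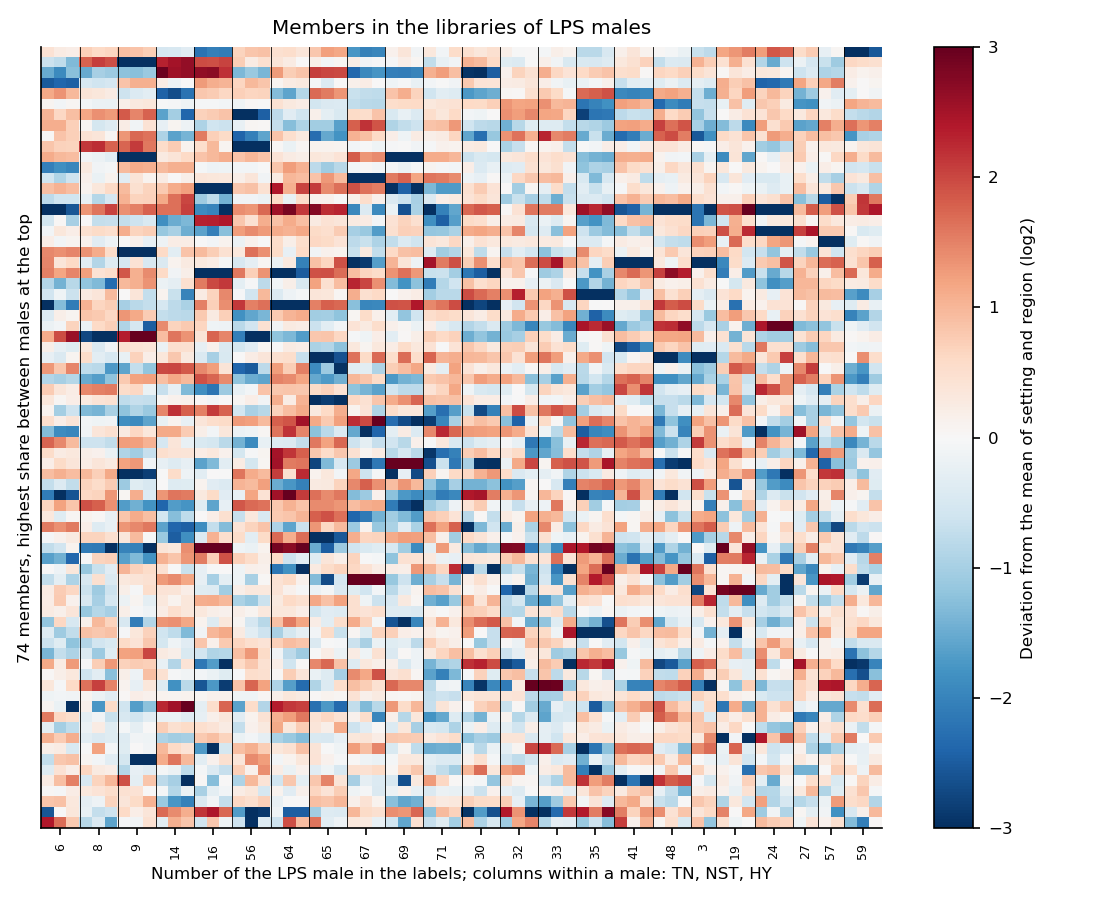
Deviation of each variable gene (rows, highest share between males at the top) from the mean of its setting and region in the 66 libraries of LPS males (columns, grouped by male in the order TN, NST, HY), in log2 units with colours ending at -3 and 3. Within most males the 3 columns carry the same colours, whereas males 32 and 33 differ in their HY column.

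The 2 genes with the highest share between LPS males were ENSTGUG00000004894 and ENSTGUG00000015146. ENSTGUG00000004894 had a share of 0.981 (edgeR adjusted p = 2.47e-22). In LPS males the lowest, median and highest levels were 0.711, 10.9 and 27.6 CPM in TN, 0.589, 12.6 and 32.2 CPM in NST, and 0.956, 10.7 and 36.3 CPM in HY. In control males the lowest, median and highest levels were 0.767, 12.9 and 31.7 CPM in TN, 0.227, 13.3 and 32.1 CPM in NST, and 0.622, 16.3 and 52.2 CPM in HY. The ranges of LPS and control males overlapped in every region. Averaged over regions, 3 LPS males lay below a gap of 1.18 log2 units to the next, and the order of LPS males was nearly the same in each region, with correlations of 0.976 for TN with HY, 0.977 for NST with HY and 0.981 for TN with NST.

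ENSTGUG00000015146 had a share of 0.978 in LPS males (edgeR adjusted p = 6.19e-18), and it was 0.910 to 0.983 when each LPS male was left out. Most males had similar levels. The median was 11.8 CPM in TN, 13.1 in NST and 13.5 in HY of LPS males, with quartiles of 8.33 and 15.7, 9.05 and 16.5, and 11.2 and 17.2 CPM, and 13.3, 14.5 and 14.8 CPM in TN, NST and HY of control males. Its spread came from the low end. One LPS male had 0 reads in all 3 regions, and 1 control male had 0 reads in NST and HY and 0.18 CPM in TN.

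The 2 genes with the lowest share were ENSTGUG00000013671 and ENSTGUG00000014998. ENSTGUG00000013671 had a share of 0.298 in LPS males (edgeR adjusted p = 0.00971), and without LPS male 6 the adjusted p was 0.0702. Its share was 0.352 without males 32 and 33 and the NST library of male 19. In LPS males the lowest, median and highest levels were 0.267, 0.768 and 6.30 CPM in TN, 0.117, 1.29 and 4.52 CPM in NST, and 0.442, 1.49 and 3.26 CPM in HY. In control males the lowest, median and highest levels were 0.0853, 1.33 and 4.08 CPM in TN, 0.0971, 1.31 and 5.39 CPM in NST, and 0.108, 1.37 and 8.29 CPM in HY. A male that was high in one region was often not high in the next, with correlations of 0.316 for TN with HY, 0.393 for NST with HY and 0.298 for TN with NST in LPS males, and 0.517, 0.333 and 0.395 without those libraries.

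ENSTGUG00000014998 had a share of 0.404 in LPS males (edgeR adjusted p = 0.000352), which came to 0.758 without males 32 and 33 and the NST library of male 19 (edgeR adjusted p = 7.48e-09). In LPS males the lowest, median and highest levels were 0, 1.91 and 7.25 CPM in TN, 0.111, 2.28 and 9.19 CPM in NST, and 0, 2.25 and 9.31 CPM in HY. In control males the lowest, median and highest levels were 0, 2.62 and 4.34 CPM in TN, 0, 2.36 and 4.46 CPM in NST, and 0, 2.68 and 7.63 CPM in HY. The library labelled HY 32 had 0 CPM while TN and NST of that number had 5.39 and 5.26, and the library labelled HY 33 had 4.67 CPM while TN and NST of that number had 0 and 0.370. In control males its correlations were 0.852 for TN with HY, 0.805 for NST with HY and 0.952 for TN with NST.

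**Figure D5:**
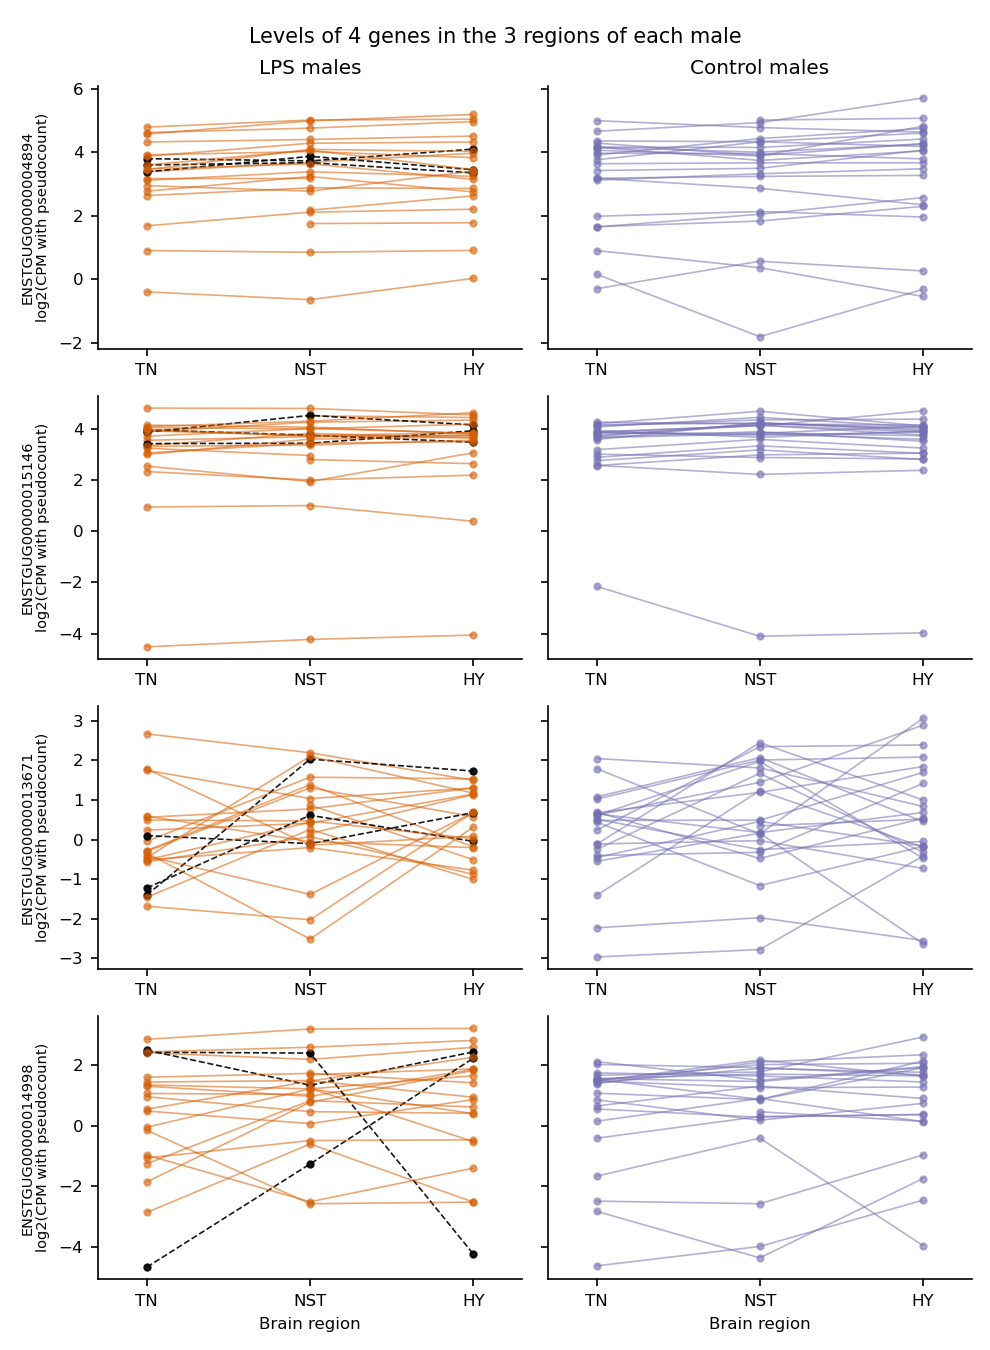
Levels (vertical axes, log2 CPM with a pseudocount of 0.5) of the 2 genes with the highest and the 2 with the lowest share between LPS males in the 3 regions (horizontal axes), for LPS males at the left and control males at the right; a line joins the libraries of 1 male, and black dashed lines are males 19, 32 and 33. Lines run nearly parallel for the upper 2 genes and cross for ENSTGUG00000013671, and for ENSTGUG00000014998 the black dashed lines cross between NST and HY.

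The spread of most variable genes was drawn out toward low levels. For each gene, deviations were averaged over the regions of a male, and the skewness of these means was below 0 for 61 of the 74 genes in LPS males, or 82.4%, against 59.7% of the other genes. The median skewness was -0.56 for the variable genes and -0.12 for the others in LPS males, and in control males it was -0.93 and -0.17. The spread of control males had chosen the genes, so nothing is read from the skewness there. In LPS males 22 variable genes had a skewness below -1 and 3 had one above 1, counts that are not set beside other genes. The 196 other genes with a high SD in controls had a median of -0.43 in LPS males. Abundance differed between the sets, with median control levels of 1.86, 1.24 and 4.69 log2 CPM for the variable genes, the 196 and the others. The part of low counts in the skewness was not tested.

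For 34 of the 74 genes, or 45.9%, the averaged deviations of the 23 LPS males held a gap of at least 2-fold between neighbours. Such a gap was found for 2.74% of the other genes and 49.5% of the 196. A gap of fixed size is favoured by a high SD, so no shape of distribution is read from the contrast with the other genes. The gap set 1 male apart at the low end for 18 genes, 2 to 4 males at the low end for 9, and 1 to 3 males at the high end for 5. The males set apart alone at the low end were not always the same: 11 different LPS males appeared, each for at most 3 genes. In control males, whose spread chose the genes, such a gap was found for 45 genes. For 24 of them it set 1 male apart at the low end, and 15 different males appeared, each for at most 4 genes. The counts in control males and the split by position in LPS males are not set beside other genes. Nothing particular to the variable genes is read from them.

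Counts of 0 were found for a part of these genes. In LPS males 27 of the 74 genes (36.5%) had at least 1 library at 0 reads, against 42.9% of the 196 and 1.77% of the other 12716 genes. In control males 38 (51.4%) had one, against 61.7% and 2.01%. A control library at 0 reads raises the SD that chose the genes, so nothing is read from the counts of 0 in control males. The 3 sets differ in abundance, with a median control level over regions of 1.86, 1.24 and 4.69 log2 CPM, and the part of abundance in these counts was not tested. There were 47 combinations of a gene and an LPS male with 0 reads in at least 1 region. The count was 0 in every region of that male in 6 of them, and in 43 (91.5%) the gene stayed under 1 CPM in every region, against 76.6% of such combinations among the 196 and 67.1% among the other genes. Of the remaining 4, 3 belonged to males 19, 32 or 33. In control males 4 of 55 such combinations had a count of 0 in every region, and in 51 (92.7%) the gene stayed under 1 CPM in every region, against 90.4% among the 196 and 64.3% among the other genes. A count of 0 in 1 library allows up to 3 reads and so does not show that a gene was silent, and this limit covers counting error only.

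The variable genes did not vary as one block. Over the averaged deviations of 23 LPS males, the 2701 pairs of variable genes had a median correlation of -0.0055, with quartiles of -0.17 and 0.17, and in control males the median was -0.017 with quartiles of -0.18 and 0.17. A correlation above 0.7 was found for 9 pairs in LPS males and 19 in control males, and 5 pairs exceeded it in both, with 7 genes in them. One of these pairs included ENSTGUG00000015146, at 0.741 in LPS males and 0.917 in control males. The numbers of pairs are not set beside pairs of other genes. Over all 46 males, 50 of the 74 genes, or 67.6%, had no gene at all among those with a control mean of at least 1 CPM that correlated with them above 0.7. The same held for 56.3% of the other genes. Of the rest, 22 variable genes had 1 to 5 such partners and 2 had more, against 2542 and 3010 of the 12716 other genes. The gene with the most was ENSTGUG00000013671, the one with the lowest share between males, with 45 partners, whereas ENSTGUG00000004894 had none.

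Differences of mean levels between regions in LPS males had been limited in advance by the choice of genes, which bounded both the region differences in control males and the LPS difference in each region. The test without the male as a block also holds the spread between males in its error, and the counts are given as a description. TN and HY differed for 1 of the 74 genes (edgeR quasi-likelihood F test, adjusted p under 0.05 after Benjamini-Hochberg), where the background was 47.5%. NST and HY differed for 0 of the 74, where the background was 35.3%, and TN and NST for 0 of the 74, where the background was 27%. Without adjustment, 2, 0 and 0 of them had a p under 0.05, where 52.7%, 42.8% and 36.2% of all genes did. DESeq2 called 1, 0 and 0, where it called 48.4%, 36.4% and 28.1% of all genes. The gene that differed, ENSTGUG00000015614, was 1.07 higher in TN on the log2 scale and is named after its value was seen. The median size of the difference among the variable genes was 0.16 on the log2 scale for TN minus HY, 0.086 for NST minus HY and 0.15 for TN minus NST, and over all genes 0.22, 0.16 and 0.14. With the male as a block, since regions of the same number come from one brain, TN and HY differed for 14 of the 74 (8 higher in TN and 6 higher in HY; background 56.6%), NST and HY for 6 (3 higher in each; background 45.2%) and TN and NST for 8 (4 higher in each; background 38.3%).

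The social setting was not called for any variable gene with edgeR. These tests hold the spread between males of one group in their error, and the genes were chosen for a high spread within settings of control males. Calls were thus made less likely in advance, and no absence of a setting effect is read from the counts. Among LPS males the 4 settings differed for 0 of the 74 genes in TN, NST and HY (edgeR quasi-likelihood F test, adjusted p under 0.05 after Benjamini-Hochberg), and the background was 0% in each region. Before adjustment, 8, 5 and 4 of the 74 in TN, NST and HY had a p under 0.05, where 8.38%, 11.5% and 4.4% of all genes did. DESeq2 called 1 variable gene in TN of LPS males and none in NST or HY, where it called 0.308%, 0.229% and 0.0485% of all genes. Among control males the settings also differed for 0 of the 74 with a background of 0% in each region, with 5, 3 and 1 genes below 0.05 before adjustment, where 4.97%, 4.51% and 5.74% of all genes were. DESeq2 called none of them in any region and 0.0343%, 0.132% and 0% of all genes. The interaction of LPS with setting gave 0 of the 74 and a background of 0% in every region, with 5, 4 and 4 genes below 0.05 before adjustment in TN, NST and HY, where 4.73%, 3.87% and 4.88% of all genes were. DESeq2 called none of them in any region and 0%, 0.0417% and 0% of all genes. The LPS effect averaged over settings, which the choice of genes had bounded, was called for 0 of the 74 by edgeR in each region and for 0 before adjustment, where the background was 3.8% in TN, 5.57% in NST and 4.92% in HY, and nothing is read from it. The bound was set on mean log2 CPM, and log2 differences estimated by edgeR could exceed it. ENSTGUG00000014135 had -0.591, -0.752 and -0.582 in TN, NST and HY, and ENSTGUG00000005753 had 0.513, 0.347 and 0.436. These genes are named after their values were seen.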

How the data were processed

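Polyadenylated RNA from 3 brain regions was sequenced after library preparation with a NEBNext Ultra kit, per the labels' protocols, with HISAT2 and HTSeq 0.6.1 named in the submitters' processing notes. Genome build, annotation and use of strand: not given in the sources used here. Raw read counts were what the authors deposited, for 18618 genes in 134 libraries, and every column matched a label. Totals of 7339294 or more reads per library leave counting error small beside the spread between males except at low counts. Libraries of different regions with the same label number were treated as one male, so replicates of a group are separate males.

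The variable genes, and the lists and tests, were chosen with earlier results of these data known. The genes named were to be those with symbols. As 0 identifiers matched a name, the rule's second form took the 2 genes with the largest and the 2 with the smallest share of variance between LPS males. Lists of cell type markers could not be used for the same reason.

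Tests on counts used edgeR 4.0.16 under R 4.3.3 (TMM scaling, filterByExpr with a minimum count of 10 and a minimum total of 15, quasi-likelihood F tests, robust estimation), 2-sided, with Benjamini-Hochberg adjustment over all genes tested and a threshold of 0.05. Males were compared in a model with region by setting means and males within settings. Regions were compared in LPS males with region by setting means, and settings and their interaction with LPS in each region with 8 group means. The share between males is the variance component between males, from log2 CPM after subtracting region by setting means, divided by its sum with the component within males. That regions of one number pair was checked by correlating libraries, as given with the profiles. Simulated data were run for the male effect, TN minus HY and the share between males in LPS males. Setting was simulated for control males in HY. The interaction and the replicate block were not simulated. Region and setting effects were not simulated in genes with a spread between males as wide as that of the variable genes. Alternatives were RLE scaling, no filter, DESeq2 1.42.0, a replicate block, another log2 scale, the median absolute deviation, other SD bounds, and leaving out each male or the libraries that stood apart. Tables and plots used pandas 2.3.3, numpy 2.4.6 and matplotlib 3.10.9 in Python 3.11.15.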

Additional observations from a re-analysis of the deposited data

Results flagged for a closer look

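For the 4 genes named, 96 groups of 4 to 6 males were examined for a library far from the others of its group, and 14 held one, 13 on the low side and 1 on the high side. Chance flags about 1 in 20 groups of normally distributed values, and libraries of 1 male in several regions are not independent. The genes had been chosen for a high SD in control males, which favours flags in control groups, and flagged levels include 0 CPM. The number of flags is therefore not read against that rate.

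ENSTGUG00000004894 was lowest in male 35 among LPS males in KF in NST (7.27 CPM), in male 59 among LPS males in NF in TN (0.711 CPM) and in male 67 among LPS males in KFC in TN (1.82 CPM). ENSTGUG00000015146 was lowest in male 9 among LPS males in ISO in TN (0 CPM), in male 12 among control males in ISO in NST (7.35 CPM), and in male 44 among control males in KF in TN (0.18 CPM), NST (0 CPM) and HY (0 CPM). Male 44 was thus flagged for this gene in all 3 regions, in control libraries whose spread had chosen the gene. ENSTGUG00000013671 was highest in male 6 among LPS males in ISO in TN (6.3 CPM). It was lowest in male 59 among LPS males in NF in NST (0.196 CPM) and in male 5 among control males in ISO in TN (0.17 CPM). ENSTGUG00000014998 was lowest in NST in male 28 among control males in NF (1.32 CPM) and in male 12 among control males in ISO (0.111 CPM), and in TN in male 70 among control males in KFC (0.0936 CPM).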

How the results depend on the processing

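The number of variable genes moved most with the measure of spread: 16 genes met the conditions with the median absolute deviation. It was 93 with TMM scaling and a prior count of 2 (53 of them among the 74), 102 and 55 with SD bounds of 0.9 and 1.1, and 62 to 87 when each of 46 males was left out. An SD divisor reduced by 4, chosen after seeing the data, gave 99. Leaving males 32 and 33 and the NST library of male 19 out of the correlations between regions was also chosen after seeing the data.

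The median SD in LPS males was 1.05 in TN, 1.08 in NST and 1.05 in HY with TMM scaling and a prior count of 2, and 0.730, 0.742 and 0.688 with the median absolute deviation. Leaving out each LPS male gave 1.14 to 1.21 in TN, 1.16 to 1.20 in NST and 1.16 to 1.21 in HY. The median share between LPS males was 0.890 without males 32 and 33 and the NST library of male 19, and 0.796 to 0.855 when each male was left out. The cause of these shifts was not tested.

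The call of a male effect in LPS males held for 74 genes under RLE, no filter, DESeq2 and without those libraries, and for 73 to 74 with each male left out. Over all genes tested, RLE called 9160 of 14760, no filter 9032 of 18011 and DESeq2 10321 of 14760. Without those libraries 9761 of 14705 were called, and with each male left out 8577 to 9577 genes. These member counts alone thus say little about the variable genes. With the replicate block, regions of LPS males differed for 14 (TN minus HY), 6 (NST minus HY) and 8 (TN minus NST) variable genes. Without the block, leaving out each LPS male gave 1 to 2, 0 to 0 and 0 to 1. The counts with the block were not obtained again with a male left out. DESeq2 called 1 variable gene for setting in TN of LPS males. The remaining counts for setting and interaction were 0 under the alternatives run, and 0 to 0 with each male left out. Low counts limit the precision of the levels near 1 CPM.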
